A study of Mus musculus with 12 samples.

Results

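PT-22 cells collected 6 days after 4-hydroxytamoxifen were compared with cells of the same line collected 2 days after it, to ask what was added to, and what was reversed from, the expression state of day 2. The comparison used the 3 libraries of day 6 and the 3 libraries of day 2, which were 6 of the 12 libraries of the study, and no control library. It was made over the 12801 of 55491 listed genes that passed a filter on low counts. PT-22 is a mouse kidney line labelled as proximal tubule with the genotype Pax2-/-,Pax8fl/fl,Rosa-CreERT2. In all groups Pax2 is therefore labelled as lost, Pax8 can be cut between loxP sites, and a Cre recombinase that enters the nucleus when it binds 4-hydroxytamoxifen is made from the broadly active Rosa locus. The cells were grown to confluence and the drug was given at 1 µM for 2 days, with RNA taken at 2, 6 and 12 days and from untreated control cells, in libraries lettered A, B and C. The labels do not say whether the days count from the start of the treatment, whether the letters are separate cultures, or whether the line is 1 clone. The p-values therefore measure the spread between these libraries, which may be technical. Between day 2 and day 6 the time since Cre activation, the time since the drug and the time in culture all increase, and these cannot be told apart here.

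PAX8 is a paired-box transcription factor that, with its relative PAX2, forms and maintains the kidney epithelium. Proximal tubule cells reclaim most of the filtered glucose, amino acids, bicarbonate and protein through brush-border transporters and the endocytic receptors megalin (Lrp2) and cubilin (Cubn). In the intact kidney they burn fatty acids for energy, but lines grown in dishes commonly use glycolysis and lose many transporters. Cells that leave the epithelial state often change their cadherins, integrins, matrix and contractile proteins, and TGF-beta, BMP, WNT and receptor tyrosine kinase signals through ERK are among the pathways that act on these genes.

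Library totals were 4326667 to 11654959 counts at day 2 and 7482293 to 10027484 at day 6, and no 2 libraries were copies of each other. Transcripts encoded in mitochondria took 4.90% ± 0.794 of the counts at day 2 and 3.91% ± 0.148 at day 6 (SD, n = 3, exact two-sided permutation p = 0.1, the smallest that 3 against 3 libraries can give). The day 2 library B, the smallest, had the highest share at 5.70%. Without it the difference was -0.59 in place of -0.99 percentage points. The nuclear RNA Malat1 took 0.225% ± 0.00994 and 0.433% ± 0.0534 (exact permutation p = 0.1), so the libraries of the days did not overlap in it. The part played by these shares in the results below was not tested. Levels are counts scaled with TMM to 1000000 per library (CPM) and are given as mean ± SD over 3 libraries. Differences are day 6 minus day 2 on the log2 scale with their SE. Each adjusted p comes from the quasi-likelihood F-test of edgeR, corrected over the 12801 genes by the Benjamini-Hochberg method. A gene is said to have risen or fallen where that p is under 0.05.

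In all, 5693 of the 12801 genes (44.5%) differed between the days, 2866 of them higher (22.4%) and 2827 lower (22.1%) at day 6. Most differences were small, with a median size of 0.46 on the log2 scale among the genes that passed. Without regard to the test, the libraries of the days did not overlap for 6731 genes (52.6%). Of the genes that passed, 508 were higher (3.97% of those tested) and 362 lower (2.83%) by at least 2-fold. The median difference over all genes was -0.0031. On the deposited TPM scale without centring that median moved to 0.12 and the split became 2851 higher and 1131 lower, and with each library centred on its median gene it was 1721 higher and 2032 lower. The counts of rising and falling genes in 35 gene lists, 70 in all, moved by more than 1.5 times in 25 cases without centring and in 17 with it. The direction of a list is described below only where its median kept its sign on both scales. The plot of difference against mean level shows both directions over the whole range of levels.

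**Figure D1:**
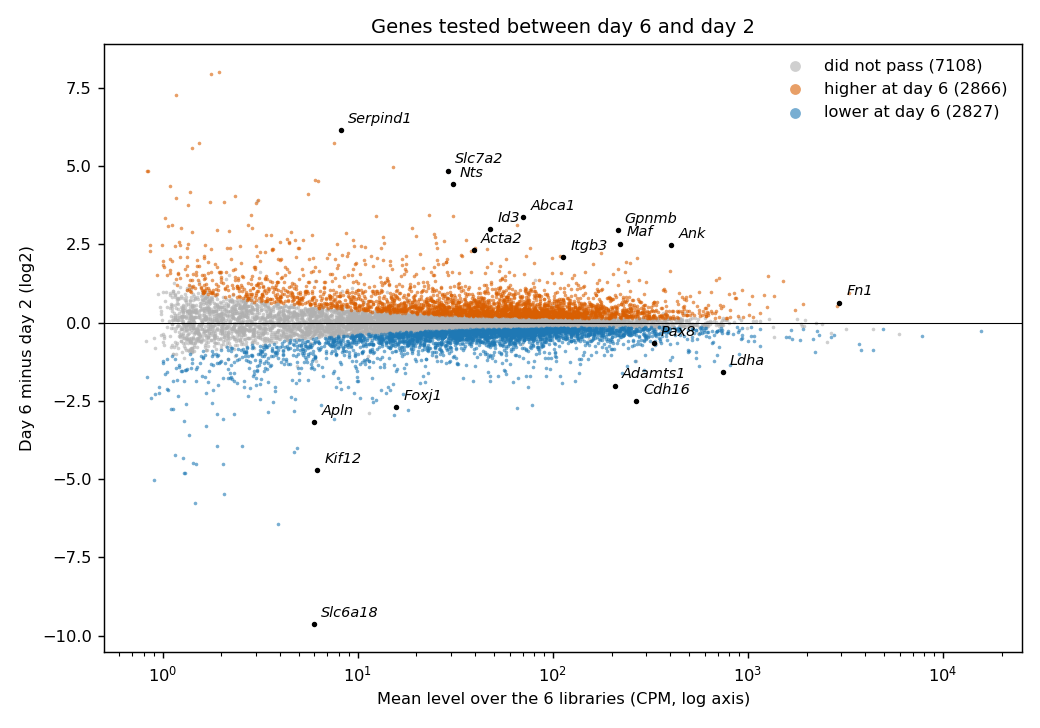
Difference between day 6 and day 2 (log2, vertical axis) against the mean level over the 6 libraries (CPM, log axis) for the 12801 tested genes. Orange points are the 2866 genes that were higher and blue points the 2827 that were lower at an edgeR adjusted p under 0.05, and grey points did not pass. Of the named genes, Abca1, Gpnmb, Cdh16 and Ldha stand at the edges of the cloud, while others, such as Pax8 and Fn1, lie nearer to 0.

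The main change in lipid genes was a fall of cholesterol and fatty acid synthesis together with a rise of the sterol exporter Abca1. Of the 47 tested genes of that list, 32 fell and 6 rose, with 9 not passing, against 22.1% of all genes that fell and 22.4% that rose. Their median difference was -0.49. The list also holds Abca1, which is no synthesis enzyme and is among the 6 that rose. Sterol synthesis genes are known targets of SREBP factors, which act on promoters together with the CCAAT-binding factor NF-Y. For this reason the RefSeq promoter windows (GRCm38.p6, 250 bases before to 50 bases after the start, each on the strand of its gene) of an enzyme near the start of the pathway and of one late in it are shown. Capitals mark CCAAT on either strand in both and, in Hmgcs1, also the single match to the sterol element letters TCACNCCAC. Hmgcs1 lies on the plus strand at chr13:119690101-119690400 and Msmo1 on the minus strand at chr8:64733529-64733828.
Hmgcs1: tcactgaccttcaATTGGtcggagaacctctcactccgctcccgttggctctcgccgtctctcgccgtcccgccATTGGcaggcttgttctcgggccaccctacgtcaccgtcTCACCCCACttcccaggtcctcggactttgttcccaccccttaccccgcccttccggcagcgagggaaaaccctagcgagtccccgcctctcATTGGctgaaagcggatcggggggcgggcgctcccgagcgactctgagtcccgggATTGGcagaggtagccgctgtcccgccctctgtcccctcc
Msmo1: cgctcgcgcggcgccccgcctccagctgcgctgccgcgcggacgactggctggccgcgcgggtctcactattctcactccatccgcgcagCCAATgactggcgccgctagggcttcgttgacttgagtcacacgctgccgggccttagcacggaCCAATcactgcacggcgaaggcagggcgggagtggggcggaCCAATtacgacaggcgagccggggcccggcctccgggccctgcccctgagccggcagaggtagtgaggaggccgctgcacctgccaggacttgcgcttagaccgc
CCAAT was found in 27 of the 34 list members with a window (79.4%), against 43.4% of the tested genes with a window and 37.4% of all 32851 windows. Here and for the motifs below, a gene was counted where any of its windows matched. The share over all windows counts each window once, so it is not on the same unit. TCACNCCAC was found in 1 of the 34 (2.94%), against 1.35% of tested genes and 1.24% of all windows. These matches describe letters and show no binding. Each window shown here and below is the first listed for its gene that held a match to a marked motif. That a shown window holds a match was therefore set in advance.

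Hmgcs1 (HMG-CoA synthase, chromosome 13, 119690379 to 119708260 in GRCm38, GENCODE M21) stood at 461, 404 and 442 CPM in day 2 libraries A, B and C and at 153, 152 and 148 CPM in the day 6 libraries. Every day 6 library lay below every day 2 library. The difference was -1.53 ± 0.063 (edgeR adjusted p = 9.74e-16). Squalene epoxidase (Sqle), a slow step of the pathway, had 356, 356 and 337 CPM at day 2 and 130.1, 131 and 136 CPM at day 6, again without overlap (-1.40 ± 0.06, edgeR adjusted p = 2.60e-15). The isomerase gene Idi1 fell from 142 ± 9.39 to 50.5 ± 4.02 CPM. Msmo1, which removes methyl groups from sterol intermediates, fell from 167 ± 19.4 to 51.2 ± 0.530 CPM (-1.71 ± 0.079, edgeR adjusted p = 1.16e-14). The fall took in the fatty acid elongase Elovl6, from 74.6 ± 2.43 to 20.5 ± 1.54 CPM (-1.85 ± 0.089, edgeR adjusted p = 2.13e-14), but fatty acid synthase (Fasn) did not pass at 354 ± 7.26 and 322 ± 21.02 CPM (-0.14 ± 0.06, edgeR adjusted p = 0.0658, but 0.0324 without day 2 B and 0.0462 without day 6 C).

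Abca1, the pump that loads cellular cholesterol onto apolipoproteins, went the other way. Its level (chromosome 4, 53030787 to 53159895) was 11.8, 12.2 and 13.2 CPM at day 2 and 124, 139 and 124 CPM at day 6. The lowest day 6 library was far above the highest day 2 library, and the rise was 10.3-fold (3.36 ± 0.094, edgeR adjusted p = 8.25e-19). In control cells Abca1 had stood at 11.5 ± 0.9997 CPM and Hmgcs1 at 433 ± 19.3 CPM, close to their day 2 levels of 12.4 ± 0.697 and 436 ± 29.3. At day 12 Abca1 was at 143 ± 4.53 CPM and Hmgcs1 at 99.9 ± 2.07 CPM. Beside this comparison, day 2 against control gave 13 list genes that rose and 3 that fell of 47, where 10.3% of all 13513 genes rose and 10.9% fell (21.2% in all). That comparison shares the day 2 libraries with this one, so its values are given only side by side.

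**Figure D2:**
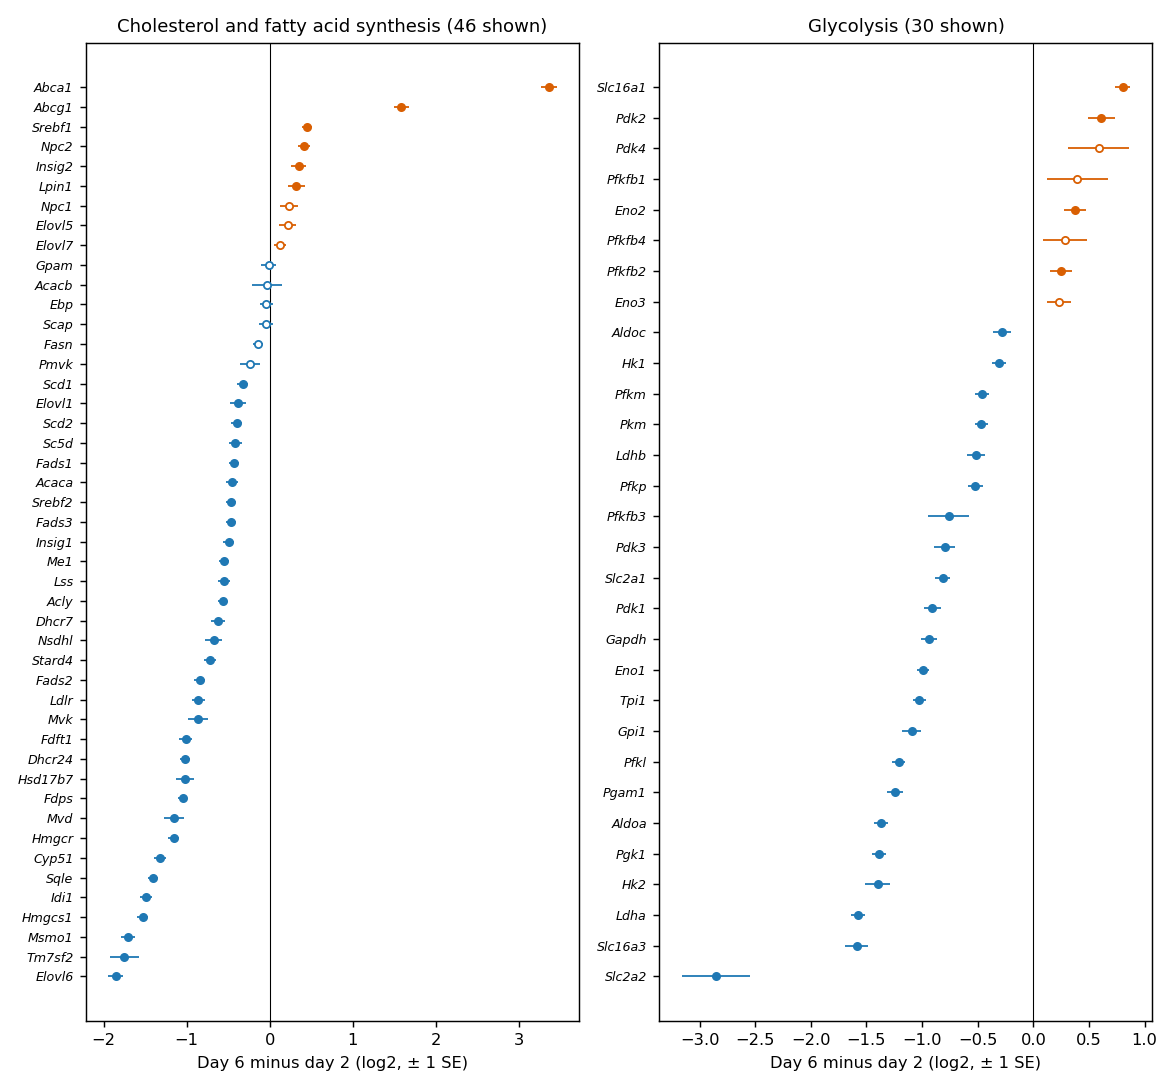
Difference between day 6 and day 2 (log2, points, with bars of 1 SE) for genes of the lists of cholesterol and fatty acid synthesis (left) and glycolysis (right), in order of the difference. Points are filled for an edgeR adjusted p under 0.05 and open for the rest. The left list also holds the exporter Abca1. Abca1 lies farthest to the right of 0 in the lipid panel, and Ldha, Pgk1 and Aldoa lie beyond -1 in the glycolysis panel.

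Most genes of glycolysis fell. Of 30 tested glycolysis genes, 22 fell, 4 rose and 4 did not pass, with a median difference of -0.78, and 10 of those that fell did so by at least 2-fold. Many of these genes are textbook targets of hypoxia-inducible factors, whose binding element holds the letters ACGTG. Promoter windows of Ldha (plus strand, chr7:46845554-46845853) and Pgk1 (plus strand, chrX:106186850-106187149) that hold these letters are shown for that reason. Every ACGTG is in capitals on either strand, so that a CACGTG holds 2 overlapping matches. The Ldha window lies past the first base of the gene as given below, so it belongs to a start inside the gene.
Ldha: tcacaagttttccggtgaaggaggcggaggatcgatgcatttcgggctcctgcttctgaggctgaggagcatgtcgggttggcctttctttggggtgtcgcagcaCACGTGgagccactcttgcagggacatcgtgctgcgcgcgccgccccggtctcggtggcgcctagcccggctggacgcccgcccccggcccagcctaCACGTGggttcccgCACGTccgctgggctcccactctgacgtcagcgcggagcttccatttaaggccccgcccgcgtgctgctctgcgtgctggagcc
Pgk1: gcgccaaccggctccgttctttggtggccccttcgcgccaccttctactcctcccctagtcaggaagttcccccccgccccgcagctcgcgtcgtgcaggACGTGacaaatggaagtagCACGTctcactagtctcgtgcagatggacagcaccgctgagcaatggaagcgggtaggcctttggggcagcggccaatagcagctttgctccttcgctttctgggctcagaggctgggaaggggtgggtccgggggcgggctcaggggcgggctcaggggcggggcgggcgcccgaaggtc
ACGTG was found in 17 of 30 glycolysis genes with a window (56.7%) and in 18 of 27 hypoxia-inducible genes (66.7%), against 29.9% of tested genes and 19.6% of all windows.

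Ldha, lactate dehydrogenase A (chromosome 7, 46841475 to 46855627), read 1093, 1177 and 1072 CPM in the day 2 libraries and 385, 379 and 355 CPM in the day 6 libraries. The day 6 values lay close together and far under the lowest day 2 value. The difference was -1.58 ± 0.061 (edgeR adjusted p = 3.39e-16). Pgk1, phosphoglycerate kinase, had 846, 778 and 817 CPM at day 2 and 317, 328 and 287 CPM at day 6, without overlap (-1.39 ± 0.062, edgeR adjusted p = 5.68e-15). Aldolase A (Aldoa) fell from 1162 ± 79.3 to 449.7 ± 28.3 CPM, triosephosphate isomerase (Tpi1) from 935 ± 39.6 to 459 ± 18.4 CPM, enolase 1 (Eno1) from 1203 ± 22.9 to 605 ± 15.2 CPM and the liver-type phosphofructokinase Pfkl from 367 ± 6.02 to 158 ± 8.31 CPM. The lactate exporter Slc16a3 fell as well, from 69.98 ± 10.3 to 22.9 ± 0.789 CPM (-1.59 ± 0.10, edgeR adjusted p = 1.56e-11). Processed pseudogenes close in sequence exist for several of these enzymes, and reads shared with them make the exact levels uncertain. At day 12 Ldha stood at 599 ± 33.8 CPM and Aldoa at 652 ± 41.8 CPM, which lay between their day 6 and day 2 levels.

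Of 34 tested hypoxia-inducible genes, 17 fell and 8 rose (median -0.31), 5 of them rising on the centred TPM scale, and the list shares Ldha, Pgk1 and other enzymes with glycolysis. Among the falls were the mitophagy receptor Bnip3, from 204 ± 13.1 to 55.8 ± 5.57 CPM (-1.86 ± 0.076, edgeR adjusted p = 9.26e-16), carbonic anhydrase 12 (Car12), from 61.2 ± 7.86 to 16.6 ± 2.37 CPM, and the collagen prolyl hydroxylase P4ha1, from 207 ± 10.1 to 67.4 ± 4.63 CPM. The sources used here give neither oxygen levels nor medium changes. Transcripts of oxidative phosphorylation were mostly lower at the same time, by small amounts. Of 73 tested nuclear genes of the respiratory chain and ATP synthase, 49 fell, 0 rose and 24 did not pass (median -0.27). Of the falls, 0 were by at least 2-fold. On the TPM scale without centring 27 of the 73 genes fell, and with centring 42. Cytochrome c (Cycs), the mobile electron carrier, fell from 90.9 ± 13.9 to 52.2 ± 5.20 CPM (-0.80 ± 0.10, edgeR adjusted p = 2.69e-06), the bc1 subunit Cyc1 from 166 ± 11.7 to 111 ± 4.53 CPM and the ATP synthase beta subunit Atp5b from 1080.5 ± 62.6 to 776 ± 7.67 CPM. Atp5b did not pass on the uncentred TPM scale (limma adjusted p = 0.0784). The mean share of transcripts encoded in mitochondria was also the lower one at day 6, as given above.

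Of 59 genes of fatty acid oxidation and peroxisomes 14 rose and 12 fell, so that 44.1% differed against 44.5% over all genes, and the falls were 3 on the TPM scale without centring and 7 with it. The coactivator of mitochondrial genes Ppargc1a fell from 51.5 ± 4.70 to 33.3 ± 0.644 CPM (-0.61 ± 0.09, edgeR adjusted p = 5.34e-06), a call that the uncentred TPM scale did not give (limma adjusted p = 0.0677).

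More proximal tubule genes fell than rose between the days, with exceptions among the endocytic and water-handling genes. Among 23 tested proximal tubule genes, 12 fell and 3 rose, and 8 did not pass (median -0.53). Cdh16, the kidney-specific cadherin (chromosome 8, 104601911 to 104624396), had 474, 436 and 451 CPM at day 2 and 81.2, 78.1 and 81.7 CPM at day 6. The days were far apart and the difference was -2.50 ± 0.064 (edgeR adjusted p = 3.22e-19). Slc6a18, a brush-border carrier of neutral amino acids, held 279 counts over the day 2 libraries (14.4, 10.6 and 10.9 CPM) and 0 over the day 6 libraries. Set against 3 counts over the group it was at least 106-fold lower at day 6. The brush-border peptidase Anpep fell from 33.1 ± 2.38 to 8.61 ± 1.02 CPM (-1.94 ± 0.13, edgeR adjusted p = 7.25e-12), gamma-glutamyltransferase (Ggt1) from 13.4 ± 2.22 to 3.08 ± 0.773 CPM and the basolateral bicarbonate cotransporter Slc4a4 from 62.8 ± 0.601 to 38.5 ± 3.18 CPM.

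Lrp2, which encodes megalin (chromosome 2, 69424340 to 69586065), was lower at day 2 than in control and higher again at day 6. The control libraries read 282, 247 and 270.1 CPM and the day 2 libraries 119.8, 101 and 115 CPM. By day 6 the values were 214, 228 and 245 CPM and by day 12 97.6, 92.2 and 97.1 CPM. The day 6 libraries all lay above the day 2 libraries (1.02 ± 0.071, edgeR adjusted p = 1.94e-11), and the day 12 libraries all lay below them. Aqp1, the water channel of the proximal tubule, had 577, 538 and 557 CPM at day 2 and 1164, 892 and 1070.1 CPM at day 6, also without overlap (0.90 ± 0.078, edgeR adjusted p = 2.77e-08). Its control level was 172 ± 3.55 CPM. Cubn, the partner of megalin, was low throughout, with 1.54 ± 0.160 and 0.703 ± 0.175 CPM on the 2 days. Its difference passed narrowly (-1.07 ± 0.43, edgeR adjusted p = 0.0451). The call was lost with DESeq2 (adjusted p = 0.153) or without any 1 of the 6 libraries (edgeR adjusted p = 0.0536 without day 6 B, 0.0654 without day 2 C, 0.0770 without day 2 B, 0.102 without day 6 A, 0.113 without day 2 A and 0.113 without day 6 C).

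The label of the cells was checked against 16 markers of the proximal tubule. In the 6 libraries 7 of them had no count, among them the phosphate carrier Slc34a1, the glucose carrier Slc5a2 and the organic anion carriers Slc22a6 and Slc22a8. Of the 8 markers that were tested 5 fell, 2 rose and 1 did not pass (median -0.89). The summed level of all 16 was 756 to 812 CPM in the day 2 libraries and 1178 to 1429 CPM in the day 6 libraries. Most of it came from Aqp1 and Lrp2, the 2 that rose. In bulk RNA, fewer cells of a kind and less RNA per cell cannot be told apart.

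Junction and polarity genes were rearranged. Of 41 tested, 21 fell and 12 rose (median -0.21). On the TPM scale without centring 11 fell. Several cadherins were among the falls. Beside Cdh16, the tubule cadherin Cdh6 had 345, 333 and 341 CPM at day 2 and 108, 117 and 111 CPM at day 6 (-1.60 ± 0.061, edgeR adjusted p = 3.01e-16), and P-cadherin (Cdh3) fell from 141 ± 8.83 to 43.2 ± 6.37 CPM. Claudin 1 (Cldn1), a barrier protein of tight junctions, fell from 24.2 ± 5.26 to 5.92 ± 0.545 CPM (-1.98 ± 0.16, edgeR adjusted p = 4.13e-10). Other junction genes rose. Beta-catenin (Ctnnb1), which links cadherins to actin and transmits WNT signals, rose from 614 ± 17.8 to 1262 ± 45.7 CPM (1.04 ± 0.058, edgeR adjusted p = 3.60e-13). The tight junction genes F11r and Cgnl1 rose from 116 ± 6.02 to 238 ± 7.38 CPM and from 239 ± 26.4 to 493 ± 19.6 CPM.

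Of 61 cilium and cystic disease genes 28 fell and 6 rose, where 22.1% of all genes fell. The falls were 11 on the TPM scale without centring, where 1131 of all 12801 genes fell. With centring they were 17, where 2032 of all genes fell. Foxj1, the master factor of motile cilia, had 25.8, 28.6 and 27.6 CPM at day 2 and 4.87, 3.63 and 3.86 CPM at day 6, no library of the days overlapping (-2.71 ± 0.15, edgeR adjusted p = 2.26e-13). The kinesin gene Kif12 fell from 11.9 ± 2.22 to 0.464 ± 0.499 CPM (-4.71 ± 0.40, edgeR adjusted p = 7.50e-08), and the ciliary transition zone gene Tmem231 fell from 34.4 ± 3.50 to 16.1 ± 0.367 CPM. Pkd1, the gene of polycystin 1, rose from 140.3 ± 3.57 to 249.5 ± 13.5 CPM.

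**Figure D3:**
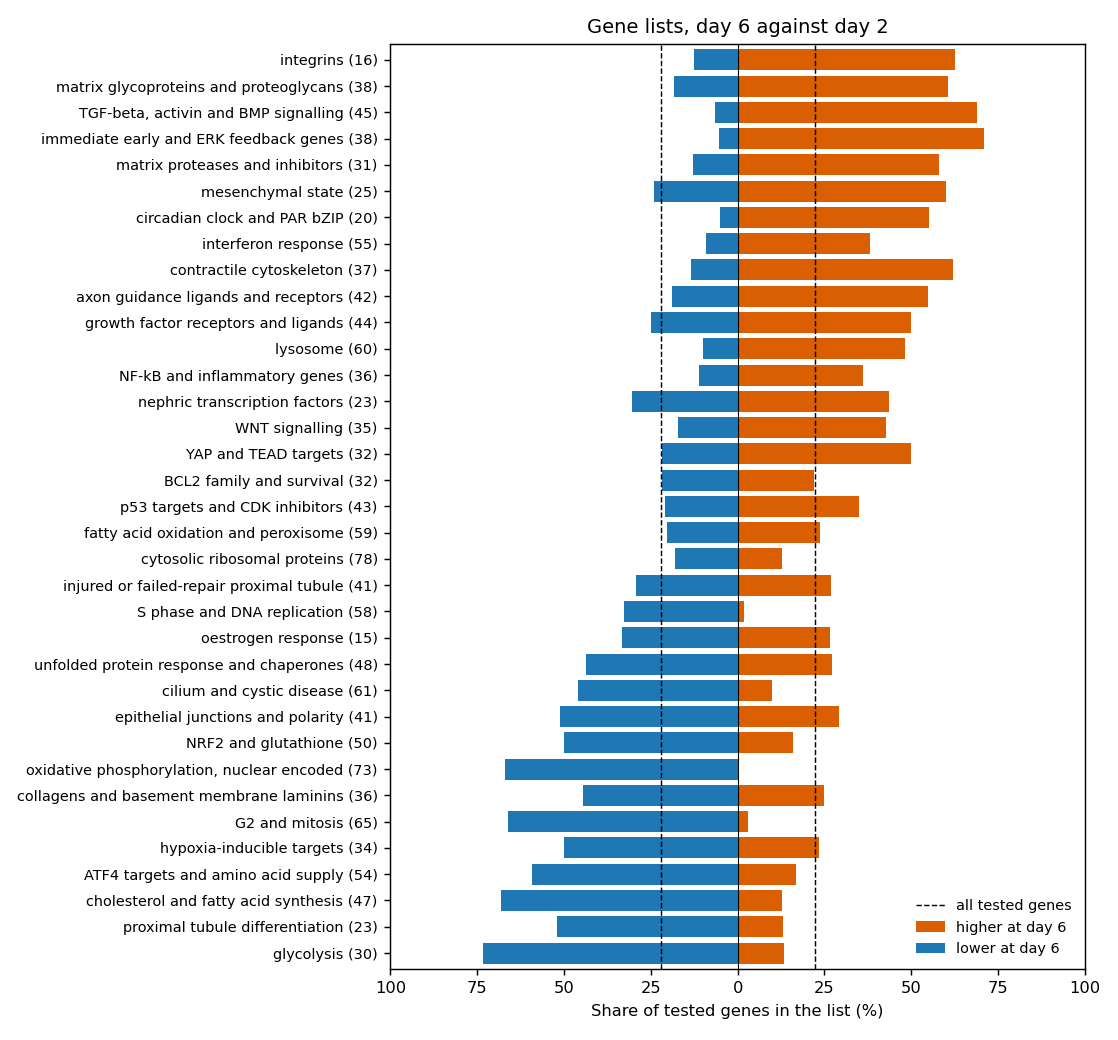
Share of the tested genes (percent, horizontal axis) that were higher (orange, to the right) or lower (blue, to the left) at day 6 at an edgeR adjusted p under 0.05, for each of 35 gene lists in order of their median difference. Dashed lines give the share over all tested genes, 22.4% higher and 22.1% lower, and the numbers beside the names are the genes tested.

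Several of the largest rises started from low levels at day 2. Serpind1, an inhibitor of thrombin (chromosome 16, 17331371 to 17343575), went from 0.408, 0 and 0.170 CPM at day 2 to 17.5, 16.7 and 14.2 CPM at day 6, from 5 to 435 counts (6.15 ± 0.32, edgeR adjusted p = 9.91e-14). The chemokine gene Cxcl15 had 6 and 392 counts and rose by 5.75 ± 0.31 on the log2 scale. The receptor-like gene Pdgfrl rose from 1.11 ± 0.685 to 29.3 ± 2.51 CPM and the collagenase Mmp13 from 0.475 ± 0.225 to 12.04 ± 1.38 CPM. With so few counts at day 2, the exact fold of these genes is poorly fixed. Genes were named among the largest rises only where the libraries of the days did not overlap, so that separation adds no support. Slc7a2, a carrier of arginine and lysine, rose from 1.78 ± 1.08 to 56.04 ± 4.48 CPM (4.86 ± 0.18, edgeR adjusted p = 4.63e-16). Nts, the precursor of neurotensin, rose from 2.72 ± 0.0892 to 58.6 ± 2.34 CPM (4.43 ± 0.13, edgeR adjusted p = 3.12e-18). The vitamin D-binding protein gene Gc rose from 13.1 ± 2.66 to 119 ± 14.5 CPM and Cdc42ep3, an effector of the GTPase CDC42, from 5.20 ± 0.605 to 56.4 ± 3.45 CPM. Akr1c18, a hydroxysteroid dehydrogenase (from 0.531 ± 0.257 to 10.6 ± 0.517 CPM), and Pakap (from 1.99 ± 1.03 to 22.7 ± 4.47 CPM) rose too, but close copies of the first and readthrough transcripts of the second can share reads.

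Among genes with a mean of at least 200 CPM, Gpnmb, a membrane glycoprotein found in lysosomes, rose most. It had 54.2, 50.4 and 44.5 CPM at day 2 and 388, 395 and 357 CPM at day 6 (chromosome 6, 49036546 to 49070929). The days were far apart and the rise was 7.71-fold (2.95 ± 0.076, edgeR adjusted p = 3.22e-19). Maf, a transcription factor of the basic leucine zipper family, rose from 65.5 ± 4.62 to 376 ± 9.60 CPM (2.52 ± 0.068, edgeR adjusted p = 5.32e-19). The pyrophosphate transporter Ank rose from 124 ± 9.51 to 687 ± 32.9 CPM, the myo-inositol carrier Slc5a3 from 98.2 ± 7.36 to 376 ± 33.8 CPM and the selenium carrier Selenop from 103 ± 9.01 to 391 ± 20.7 CPM. The actin-binding peptide thymosin beta 4 (Tmsb4x) rose from 104 ± 4.16 to 437 ± 18.2 CPM, with pseudogenes that could share its reads. Nephric factors were mixed, with 10 of 23 risen and 7 fallen. Eya1, a cofactor of early kidney development, rose from 68.3 ± 3.15 to 183 ± 8.51 CPM and the forkhead gene Foxc1 from 11.2 ± 0.768 to 46.4 ± 1.53 CPM (2.04 ± 0.11, edgeR adjusted p = 8.59e-14), and the homeobox gene Irx3 fell from 64.9 ± 7.06 to 30.8 ± 0.356 CPM.

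Among the largest falls, Aoc1, which breaks down histamine and putrescine, fell from 13.5 ± 1.59 to 1.59 ± 0.271 CPM (-3.07 ± 0.22, edgeR adjusted p = 2.45e-11). The sphingosine-1-phosphate exporter Spns2 had 137, 143 and 126 CPM at day 2 and 24.1, 22.9 and 18.1 CPM at day 6 (-2.62 ± 0.093, edgeR adjusted p = 7.63e-17), with no overlap of the days. The raft protein Mal fell from 20.5 ± 1.17 to 3.53 ± 0.793 CPM and ccdc198 from 114 ± 10.3 to 17.2 ± 0.00778 CPM. Adamts1, a secreted protease that cuts proteoglycans, fell from 334 ± 17.8 to 83.1 ± 5.83 CPM (-2.01 ± 0.068, edgeR adjusted p = 3.00e-17), after 1607 ± 59.9 CPM in control.

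Transcripts of TGF-beta family signalling genes, inhibitors among them, moved mostly upward. The activity of the pathway was not measured. Of 45 tested genes of TGF-beta, activin and BMP signalling, 31 rose, 3 fell and 11 did not pass (median 0.50), against 22.4% of all genes that rose. The ligands included Inhbb, the activin B subunit, which rose from 23.7 ± 1.02 to 83.6 ± 8.26 CPM (1.81 ± 0.093, edgeR adjusted p = 7.98e-14), and Bmp3, a BMP family member known to oppose other BMPs, which rose from 6.06 ± 0.766 to 23.1 ± 2.64 CPM. Fst, the gene of the activin-binding protein follistatin, had 1.22, 2.34 and 2.55 CPM at day 2 and 14.2, 14.2 and 17.6 CPM at day 6, without overlap (2.86 ± 0.22, edgeR adjusted p = 9.12e-11). The BMP targets Id1 and Id3, inhibitors of helix-loop-helix factors, rose strongly. Id1 had 33.2, 45.5 and 37.8 CPM at day 2 and 175, 151 and 153 CPM at day 6 (2.06 ± 0.092, edgeR adjusted p = 4.71e-14). Id3 had 7.75, 14.8 and 10.8 CPM and 89.98, 85.3 and 77.6 CPM on the same days (2.99 ± 0.13, edgeR adjusted p = 6.09e-13). Both genes had no overlap between the days and were higher still at day 12, at 280.4 ± 19.2 and 195 ± 7.77 CPM. Pmepa1, a feedback inhibitor of TGF-beta signalling, rose from 132 ± 6.65 to 299.8 ± 12.1 CPM.

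**Figure D4:**
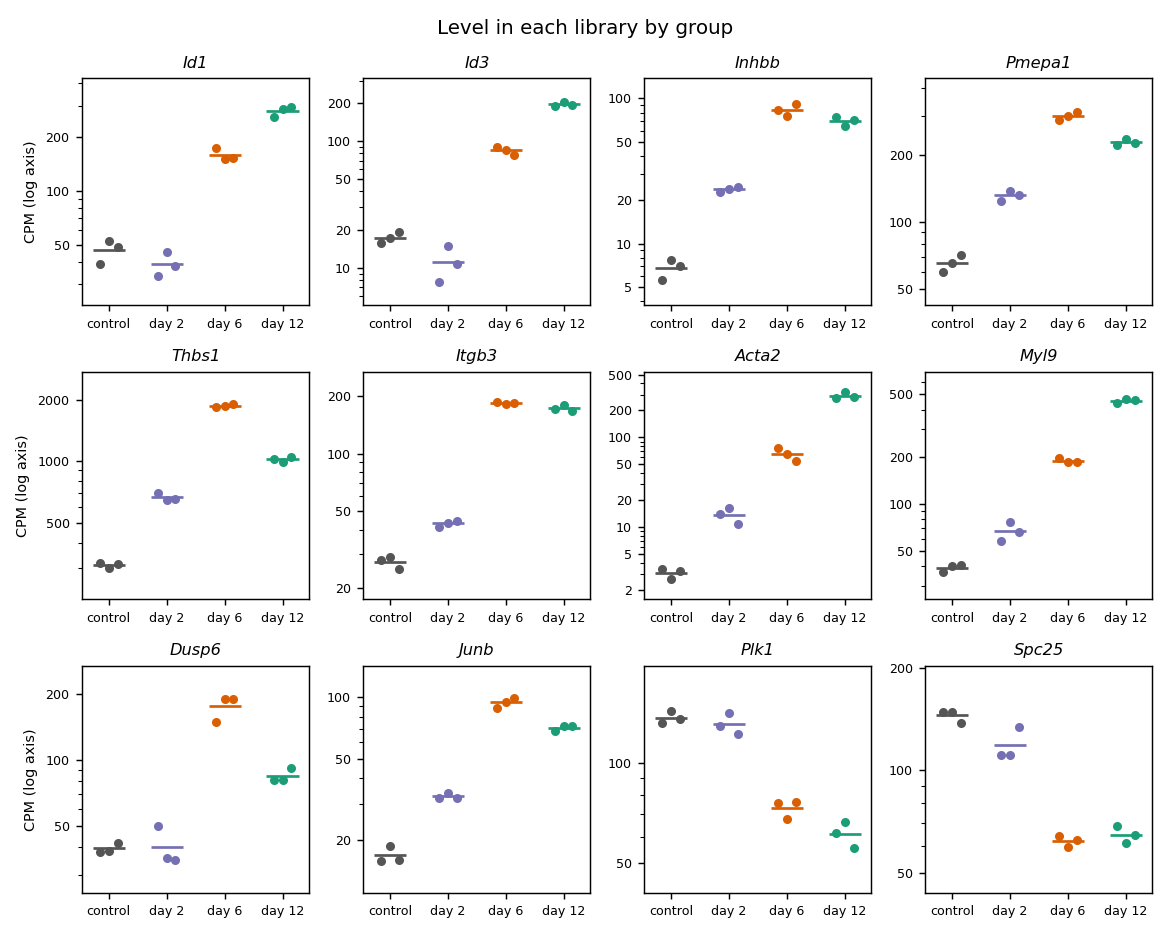
Level in each library (CPM, log axis) by group (control, day 2, day 6, day 12, 3 libraries each) for 12 genes of TGF-beta, BMP and ERK signalling, contraction and cell cycle, with a short line at the mean. In each panel the day 2 and day 6 libraries do not overlap, and Id1, Id3, Acta2 and Myl9 are higher again at day 12.

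Matrix, integrin and protease genes changed in both directions. Matrix glycoproteins and proteoglycans rose in 23 and fell in 7 of 38 genes. Fibronectin (Fn1), which already stood high at day 2, rose from 2290 ± 124 to 3569.5 ± 142 CPM (0.64 ± 0.063, edgeR adjusted p = 9.96e-09), and thrombospondin 1 (Thbs1), an activator of latent TGF-beta, from 666 ± 27.7 to 1868 ± 35.1 CPM (1.49 ± 0.059, edgeR adjusted p = 6.30e-16). Syndecan 1 (Sdc1), nephronectin (Npnt) and the latent TGF-beta binding protein Ltbp2 rose from 176 ± 10.7 to 427 ± 19.5, from 239.8 ± 7.44 to 499.7 ± 14.8 and from 2.54 ± 0.379 to 16.4 ± 1.43 CPM. Versican (Vcan) and Tgfbi went down instead, Vcan from 121 ± 1.68 to 29.3 ± 3.18 CPM (-2.04 ± 0.084, edgeR adjusted p = 9.26e-16) and Tgfbi from 32.9 ± 2.12 to 10.2 ± 1.58 CPM (-1.71 ± 0.13, edgeR adjusted p = 5.77e-11). Collagens, laminins and their enzymes had 9 risen and 16 fallen of 36. The laminin chains Lama5 and Lamb2 rose from 748 ± 18.7 to 1341 ± 85.9 CPM and from 118 ± 6.70 to 217 ± 8.999 CPM, whereas the collagen genes Col4a2 and Col18a1 fell from 125 ± 2.86 to 56.9 ± 4.70 CPM and from 633 ± 6.18 to 349 ± 16.4 CPM.

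Of 16 tested integrin genes 10 rose and 2 fell (1 without day 2 C). Itgb3, the beta chain of the vitronectin receptor, had 41.6, 43.4 and 44.5 CPM at day 2 and 185, 182 and 184 CPM at day 6, the days being well separated (2.09 ± 0.069, edgeR adjusted p = 2.20e-17). Itgb5 rose from 249 ± 10.7 to 506 ± 18.1 CPM, Itga9 from 49.7 ± 3.27 to 110.2 ± 4.90 CPM and the collagen-binding Itga11 from 3.53 ± 0.475 to 23.6 ± 2.05 CPM. Itgb1, the chain shared by many integrins, did not pass at 707 ± 16.4 and 776 ± 34.03 CPM (0.13 ± 0.058, edgeR adjusted p = 0.0643), although it passed in the model of all 12 libraries (0.0363). Matrix proteases and their inhibitors rose in 18 and fell in 4 of 31 genes, with the procollagen protease Adamts2 up from 3.59 ± 1.25 to 18.2 ± 2.59 CPM and the membrane-bound Mmp15 and the secreted Adamts5 down from 54.1 ± 5.29 to 15.5 ± 1.21 CPM and from 146 ± 4.40 to 61.8 ± 2.64 CPM.

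Contractile genes rose in 23 and fell in 5 of 37. Smooth muscle actin (Acta2) had 14.1, 16.2 and 10.8 CPM at day 2 and 75.4, 65.4 and 54.8 CPM at day 6, all day 6 libraries being higher (2.33 ± 0.14, edgeR adjusted p = 1.07e-09). The myosin light chain Myl9 had 57.8, 76.2 and 66.5 CPM and 196, 185 and 187 CPM (1.52 ± 0.078, edgeR adjusted p = 8.00e-14), and it too did not overlap. At day 12 Acta2 reached 292 ± 25.995 CPM and Myl9 457 ± 15.8 CPM. Caldesmon (Cald1) rose from 633 ± 40.5 to 1088 ± 41.7 CPM, but calponin 1 (Cnn1), tropomyosin 1 (Tpm1) and smoothelin (Smtn) fell from 67.2 ± 6.38 to 30.4 ± 6.26, from 1455 ± 16.5 to 858 ± 31.03 and from 115 ± 2.56 to 43.2 ± 2.84 CPM. Serum response factor binds CArG boxes (CC, 6 bases of A or T, then GG), and the promoter window of Myl9 (plus strand, chr2:156775214-156775513) is shown as one that holds such letters, in capitals.
Myl9: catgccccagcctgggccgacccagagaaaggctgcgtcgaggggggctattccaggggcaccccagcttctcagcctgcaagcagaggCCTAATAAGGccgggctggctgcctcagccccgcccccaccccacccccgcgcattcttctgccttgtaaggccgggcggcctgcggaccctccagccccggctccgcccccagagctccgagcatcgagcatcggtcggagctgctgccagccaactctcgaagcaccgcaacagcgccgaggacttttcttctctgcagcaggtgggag
CArG letters were found in 6 of 32 contractile genes with a window (18.8%) and in 3 of 28 immediate early genes (10.7%), against 1.51% of tested genes and 1.63% of all windows.

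Several defining markers of fibroblasts stayed at 0 while others of that list moved. The marker list of fibroblasts and smooth muscle had a summed level of 102 to 110 CPM at day 2 and 102 to 134 CPM at day 6, and 4 of its 17 markers, among them Pdgfra, Col3a1 and Thy1, had no count in the 6 libraries. Dcn (decorin) had 0 counts over the day 2 libraries and 103 over the day 6 libraries, at least 30.2-fold higher against 3 counts over the group. With Acta2 it was 1 of the 2 markers of 6 tested that rose, and 1, Cnn1, fell. The part of such cells in the matrix and contractile results was not tested. Mesenchymal genes rose in 15 and fell in 6 of 25, with the receptor kinase Axl up from 348 ± 13.8 to 609.8 ± 19.5 CPM, the lysyl oxidase Loxl2 down from 193 ± 18.95 to 85.2 ± 7.04 CPM and the ectonucleotidase Nt5e down from 25.1 ± 1.49 to 12.9 ± 0.914 CPM. Injury genes of the proximal tubule had 11 risen and 12 fallen of 41. Clusterin (Clu) rose from 191 ± 6.97 to 603 ± 6.18 CPM (1.66 ± 0.059, edgeR adjusted p = 7.36e-17), while Vcam1, Sema5a and Akap12 fell from 26.6 ± 5.74 to 8.29 ± 2.44, from 178 ± 15.6 to 45.9 ± 5.02 and from 646 ± 66.8 to 348 ± 6.37 CPM.

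Immediate early genes and the feedback phosphatases of the ERK pathway rose together. Of 38 tested, 27 rose, 2 fell and 9 did not pass (median 0.46). The falls were 0 without day 2 A or day 6 C and 1 without day 2 C or day 6 A. Dusp6, an ERK phosphatase induced by ERK itself (chromosome 10, 99263231 to 99267489), had 49.9, 35.9 and 35.02 CPM at day 2 and 150.2, 191 and 190.3 CPM at day 6. All day 6 libraries were higher, and the difference was 2.13 ± 0.16 (edgeR adjusted p = 1.85e-05). Dusp4 and Dusp1 rose from 11.2 ± 0.529 to 40.5 ± 2.46 and from 28.4 ± 1.54 to 67.7 ± 3.93 CPM. The AP-1 gene Junb had 32.2, 33.998 and 32.05 CPM at day 2 and 88.6, 94.8 and 99.6 CPM at day 6 (1.53 ± 0.082, edgeR adjusted p = 1.57e-13), again without overlap. Fos rose from 4.35 ± 1.55 to 15.2 ± 1.84 CPM, the nuclear receptor Nr4a1 from 11.6 ± 0.730 to 43.004 ± 4.82 CPM and Maff from 28.3 ± 3.52 to 68.4 ± 4.98 CPM. Dusp6 had been at 39.5 ± 2.12 CPM in control and was at 85.1 ± 6.28 CPM at day 12.

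Growth factor and receptor genes rose in 22 and fell in 11 of 44. Fgf7, a ligand for epithelial FGF receptors, rose from 11.5 ± 0.444 to 44.9 ± 3.48 CPM and the receptor Fgfr1 from 72.7 ± 6.48 to 156 ± 9.73 CPM. The insulin-like growth factors moved apart: Igf2 had 7.75, 10.6 and 5.36 CPM at day 2 and 40.5, 43.5 and 43.7 CPM at day 6 (2.55 ± 0.15, edgeR adjusted p = 4.95e-12), and Igf1 had 133, 136 and 121 CPM and 60.3, 59.9 and 55.2 CPM (-1.14 ± 0.074, edgeR adjusted p = 5.68e-12). Igf2 was higher and Igf1 lower in every day 6 library, and the binding protein Igfbp4 rose from 13.4 ± 1.64 to 66.9 ± 7.83 CPM. WNT genes rose in 15 and fell in 6 of 35. The WNT target and effector Lef1 rose from 2.29 ± 0.0700 to 9.51 ± 0.530 CPM, the receptor Fzd1 from 14.4 ± 2.71 to 35.3 ± 2.80 CPM and the secreted Dkk3 from 100.2 ± 4.22 to 330.5 ± 6.88 CPM, whereas the ligand Wnt7b fell from 46.2 ± 3.98 to 18.4 ± 2.13 CPM. YAP and TEAD targets rose in 16 and fell in 7 of 32, where 22.4% of all genes rose and 22.1% fell. Their falls were 3 on the TPM scale without centring, and their rises were 10 with centring. Among these targets Ccn1 rose from 151 ± 7.70 to 252 ± 10.8 CPM.

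Guidance genes, many of which also act outside neurons, rose in 23 and fell in 8 of 42. The secreted Sema3d and Sema3c rose from 11.99 ± 1.57 to 55.7 ± 6.30 CPM and from 379.7 ± 28.8 to 742 ± 9.86 CPM, and their receptor family member Nrp2 from 111 ± 7.44 to 268 ± 13.6 CPM (1.29 ± 0.067, edgeR adjusted p = 8.26e-14). The ephrin receptor Epha2 rose from 88.9 ± 6.77 to 159 ± 10.5 CPM.

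Inflammatory and interferon genes rose more often than they fell. NF-kB and inflammatory genes had 13 risen and 4 fallen of 36, with 19 that did not pass. Interferon response genes had 21 and 5 of 55, with 29 that did not pass. The shares that differed, 47.2% and 47.3%, were near the 44.5% over all genes, of which 22.4% rose and 22.1% fell. The interferon genes that fell were 2 without day 6 A and 3 without day 2 A or day 6 B. Tnfaip3, the A20 feedback inhibitor, had 28.7, 25.8 and 27.7 CPM at day 2 and 66.8, 62.6 and 61.6 CPM at day 6, with no overlap (1.21 ± 0.087, edgeR adjusted p = 3.96e-11). The chemokine Cxcl16 rose from 21.6 ± 4.30 to 44.6 ± 5.23 CPM and the acute phase gene Saa3 from 5.67 ± 1.74 to 43.8 ± 8.35 CPM. The class I antigen gene H2-D1 rose from 103 ± 3.24 to 304 ± 11.1 CPM (1.56 ± 0.063, edgeR adjusted p = 8.04e-16), and H2-K1 from 145 ± 3.15 to 248 ± 7.13 CPM, but reads can be shared between these similar genes. Ifi204 rose from 14.7 ± 2.06 to 46.2 ± 3.62 CPM with the same limit in its gene cluster. Leukocyte markers had a summed level of 27.5 to 33.1 CPM at day 2 and 29.4 to 31.3 CPM at day 6, and Ptprc, Adgre1 and C1qa had no count in the 6 libraries.

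Mitotic genes fell by modest amounts. In G2 and mitosis, 43 of 65 tested genes fell and 2 rose, while 20 did not pass (median -0.30). The rises were 0 without day 6 B or day 6 C and 1 without day 6 A. On the TPM scale 20 fell without centring and 32 with it. Promoters of such genes commonly hold the cell cycle homology region, whose usual letters are TTTGAA, beside CCAAT boxes. The windows of the mitotic kinase Plk1 (plus strand, chr7:122159185-122159484) and the kinetochore gene Spc25 (minus strand, chr2:69206164-69206463) are shown with both motifs in capitals.
Plk1: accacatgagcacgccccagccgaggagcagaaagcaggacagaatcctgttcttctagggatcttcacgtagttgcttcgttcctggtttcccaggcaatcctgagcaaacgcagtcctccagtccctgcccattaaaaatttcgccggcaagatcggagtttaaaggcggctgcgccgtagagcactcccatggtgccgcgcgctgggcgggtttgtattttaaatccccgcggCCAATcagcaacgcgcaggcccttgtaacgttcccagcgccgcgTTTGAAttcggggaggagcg
Spc25: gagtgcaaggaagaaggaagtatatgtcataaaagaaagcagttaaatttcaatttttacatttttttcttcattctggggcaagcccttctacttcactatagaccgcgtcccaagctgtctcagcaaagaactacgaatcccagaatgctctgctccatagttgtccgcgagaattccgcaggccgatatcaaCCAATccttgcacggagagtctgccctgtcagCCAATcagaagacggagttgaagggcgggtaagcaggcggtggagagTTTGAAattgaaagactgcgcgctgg
TTTGAA on either strand was found in 38 of 54 list genes with a window (70.4%), against 13.9% of tested genes and 17.9% of all windows, and CCAAT in 37 of 54 (68.5%).

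Plk1 had 129, 141 and 122 CPM at day 2 and 75.6, 67.7 and 76.3 CPM at day 6. The days did not overlap and the difference was -0.83 ± 0.074 (edgeR adjusted p = 2.02e-09). Spc25 had 111, 111 and 134 CPM and 64.1, 59.4 and 62.2 CPM, also without overlap (-0.95 ± 0.08, edgeR adjusted p = 7.67e-10). Cyclin A2 (Ccna2) fell from 437 ± 6.97 to 278 ± 13.5 CPM and cyclin B1 (Ccnb1) from 229 ± 8.47 to 151 ± 7.59 CPM. S phase genes fell in 19 and rose in 1 of 58, with 38 that did not pass. The S phase rises were 2 without day 2 C or day 6 C. Cyclin E1 (Ccne1) fell from 35.95 ± 3.65 to 21.7 ± 0.914 CPM and thymidylate synthase (Tyms) from 107 ± 4.79 to 66.8 ± 3.50 CPM. The median of the S phase list was -0.079 and turned positive on the TPM scale without centring, so no direction is drawn for the list. Of 43 p53 targets and CDK inhibitors 15 rose and 9 fell, among them p27 (Cdkn1b), up from 138 ± 7.81 to 204 ± 4.97 CPM, and Trp53inp1, up from 69.7 ± 4.02 to 148 ± 6.14 CPM. In the BCL2 family 7 rose and 7 fell of 32, so that 43.75% differed against 44.5% over all genes, with no common direction. The survival gene Bcl2 rose from 22.8 ± 0.936 to 40.2 ± 3.58 CPM and the pore-forming Bak1 fell from 99.6 ± 15.8 to 58.3 ± 2.77 CPM. Without day 6 A or day 6 C, 4 and 3 genes of this family rose.

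More amino acid and redox genes fell than rose, and more lysosomal genes rose than fell. Of 54 ATF4 targets and amino acid supply genes 32 fell and 9 rose (median -0.36), the falls being 21 on the TPM scale without centring. Asparagine synthetase (Asns) fell from 86.8 ± 3.52 to 42.3 ± 2.41 CPM (-1.04 ± 0.079, edgeR adjusted p = 1.14e-10), the serine enzyme Psat1 from 217 ± 5.09 to 114 ± 4.04 CPM and the mitochondrial folate enzyme Aldh1l2 from 80.03 ± 8.56 to 34.7 ± 2.64 CPM. NRF2 and glutathione genes fell in 25 and rose in 8 of 50, with glutathione reductase (Gsr) and Gstm1 down from 151 ± 9.37 to 79.8 ± 3.72 CPM and from 708 ± 48.4 to 373 ± 13.96 CPM and the plasma glutathione peroxidase Gpx3 up from 441 ± 38.6 to 860.2 ± 23.1 CPM. On the TPM scale 12 of that list fell without centring, and with centring 5 rose. Chaperones and unfolded protein genes fell in 21 and rose in 13 of 48, but 13 fell on the uncentred and 5 rose on the centred TPM scale. The heat shock genes Hsph1, Hspd1 and Hspe1 fell from 111 ± 11.4 to 47.96 ± 1.87, from 413 ± 44.2 to 254 ± 15.1 and from 98.4 ± 10.2 to 56.2 ± 3.39 CPM. Lysosomal genes rose in 29 and fell in 6 of 60 (median 0.22), and 11 fell without day 2 C. The acid lipase Lipa rose from 101 ± 5.62 to 186 ± 7.47 CPM (0.89 ± 0.066, edgeR adjusted p = 6.27e-11), the hexosaminidase subunit Hexa from 97.1 ± 6.41 to 168 ± 8.20 CPM and the glycogen-cleaving Gaa from 333 ± 34.3 to 588 ± 23.6 CPM.

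Ribosomal protein genes showed no common direction, with 10 risen and 14 fallen of 78 and a median of -0.01 that turned positive on the TPM scale without centring. Their rises were 6 without day 2 A or day 6 A, 16 without day 2 C and 3 without day 6 B or day 6 C, and their falls 9 without day 6 A. Circadian and PAR bZIP genes rose in 11 and fell in 1 of 20. The repressor Nr1d1 rose from 8.28 ± 1.77 to 19.03 ± 1.45 CPM (1.26 ± 0.15, edgeR adjusted p = 2.25e-07), and Per2 and Tef rose from 14.1 ± 1.29 to 22.7 ± 1.86 and from 109 ± 1.83 to 169 ± 4.05 CPM. The sources used here give no hour of collection. Because the treatment is a ligand of the oestrogen receptor, 15 tested genes of the oestrogen response were counted as well, of which 4 rose and 5 fell.

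Some genes were unmoved at day 2 and differed by day 6. The genes called added here differed by less than 0.25 (log2) between day 2 and control without passing, and then passed between day 2 and day 6. Since they were chosen by these values, the values are a description. Beside Abca1, Igfbp4 and Dusp6, the added rises were Atoh8, Tg and Endod1. The helix-loop-helix gene Atoh8 had 7.004, 8.52 and 8.10 CPM in the control libraries. The values were 7.21, 9.14 and 7.40 CPM at day 2, 41.9, 46.04 and 53.8 CPM by day 6 and 81.98, 87.7 and 85.98 CPM by day 12. Its control and day 2 libraries lay side by side, and all later libraries were higher. Tg, the thyroglobulin gene, which PAX8 is known to activate in the thyroid, stood at 3.25 ± 0.330, 3.32 ± 0.478, 17.4 ± 1.37 and 13.7 ± 1.65 CPM in the same order. The added falls included Foxj1, Mmp15, Vcam1 and Slc16a3, given above. Another, Apln, the ligand of the apelin receptor, had 12.2, 13.5 and 11.2 CPM in the control libraries. The values were 9.79, 12.2 and 10.5 CPM at day 2, 1.19, 1.54 and 0.665 CPM by day 6 and 1.16, 1.90 and 2.05 CPM by day 12. It was likewise level between control and day 2 and lower in all later libraries.

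Few genes reversed by a large amount. A reversal was a change of at least 1 (log2) from control to day 2, followed by at least 1 in the other direction. Both changes had to pass. Only genes with a mean of at least 5 CPM and no overlap that were not predicted, histone or mitochondrial were counted. Of these, 7 fell and then rose and 3 rose and then fell. These values also chose the genes and carry no test here. Fst had 9.19, 11.7 and 8.62 CPM in the control libraries. The values were 1.22, 2.34 and 2.55 CPM at day 2, 14.2, 14.2 and 17.6 CPM by day 6 and 13.4, 12.5 and 13.2 CPM by day 12. Its low point was at day 2, and its day 6 level was above control. Bmp3 went from 34.4 ± 4.20 CPM in untreated cells to 6.06 ± 0.766, 23.1 ± 2.64 and 20.8 ± 0.895 CPM on the 3 days, a partial return. Lrp2, given above, was the seventh. The flavin monooxygenase Fmo2 followed with 54.1 ± 2.53, 20.8 ± 2.49, 76.1 ± 2.48 and 61.02 ± 4.04 CPM. Sulf2, which removes sulphate from heparan sulphate, had 85.1 ± 1.54, 32.5 ± 1.66, 68.7 ± 2.19 and 152 ± 15.5 CPM, and the carboxypeptidase Cpm 116 ± 7.72, 47.6 ± 2.98, 98.5 ± 4.58 and 187 ± 5.86. Ifit3, an interferon-induced gene whose close copy Ifit3b can share reads, had 77.6 ± 2.48, 7.69 ± 2.65, 20.9 ± 3.74 and 16.7 ± 1.49 CPM.

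The 3 genes that rose and then fell were Plxna2, Rab32 and Clca3b. The semaphorin receptor Plxna2 had 3.90, 3.98 and 5.82 CPM in the control libraries. The values were 24.3, 30.01 and 22.3 CPM at day 2, 8.44, 11.02 and 10.5 CPM by day 6 and 15.3, 19.6 and 15.1 CPM by day 12. Its peak was at day 2, and its day 6 libraries stayed above control. The small GTPase Rab32 had 13.9 ± 0.729, 29.5 ± 1.78, 12.7 ± 1.28 and 16.8 ± 1.40 CPM. Clca3b, which has close paralogues that can share reads, had 2.95 ± 0.687, 7.49 ± 0.262, 2.52 ± 0.855 and 10.95 ± 0.819 CPM. The plot of added and reversed genes shows these courses library by library.

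**Figure D5:**
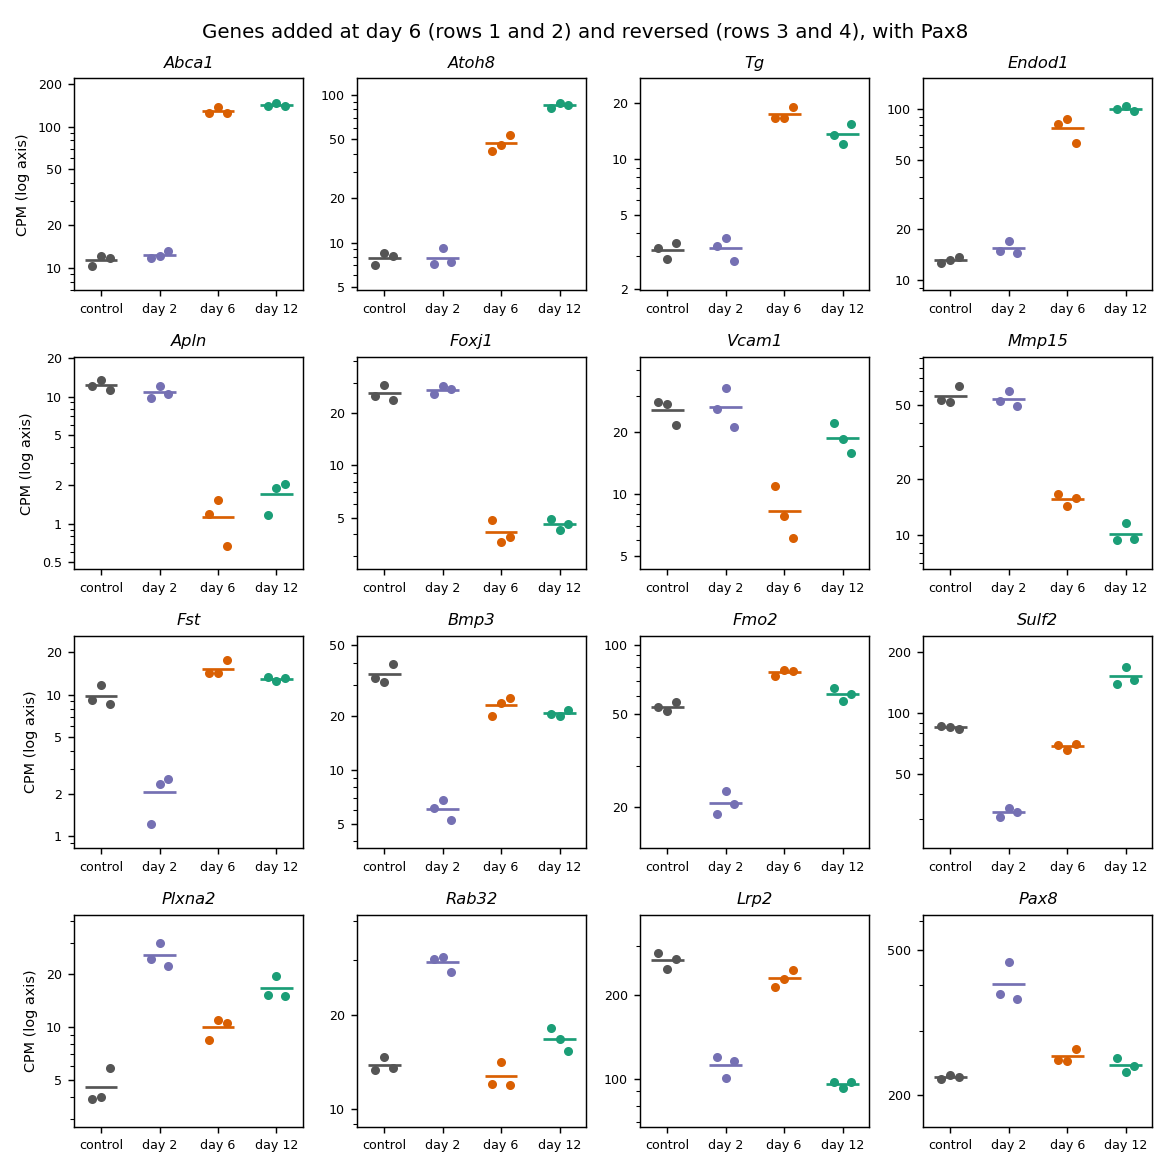
Level in each library (CPM, log axis) by group (control, day 2, day 6, day 12, 3 libraries each) for genes added at day 6 (2 upper rows), genes that reversed between day 2 and day 6 (2 lower rows) and, last, Pax8, with a short line at the mean. The added genes differ by less than 0.25 (log2) between control and day 2, and the reversed genes turn at day 2, with Lrp2 lower again at day 12 than at day 2.

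Pax8 itself (ENSMUSG00000026976, chromosome 2, 24420560 to 24475599) fell between the days. It had 378, 462 and 365 CPM at day 2 and 249, 248 and 268 CPM at day 6. The day 2 libraries differed among themselves but all lay above the day 6 libraries (-0.65 ± 0.075, edgeR adjusted p = 6.06e-07). Control stood at 224 ± 2.98 CPM and day 12 at 241 ± 10.7 CPM, so the day 6 level was near that of untreated cells. The sources used here do not give the exons between the loxP sites, and gene-level counts take in reads from the other exons, so the transcript level checks neither the deletion nor the labels. Pax2 did not pass, with 68.3, 84.9 and 61.7 CPM at day 2 and 74.8, 75.5 and 86.2 CPM at day 6 (0.17 ± 0.098, edgeR adjusted p = 0.182), values that overlapped. Without day 2 B, its highest day 2 library, it passed (0.28, edgeR adjusted p = 0.00403). Counts for Pax2 were present although its loss is in the genotype label.

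Many markers of other kidney cells had too few counts to be tested, and several defining ones had none. Of 18 markers of the loop of Henle and distal tubule 3 were tested and 2 rose, with a summed level of 122 to 141 CPM at day 2 and 121 to 145 CPM at day 6, and 7 had no count. Collecting duct markers summed to 35.9 to 44.7 and 30.6 to 36.1 CPM, with 1 of 4 tested fallen and Aqp2, the water channel of principal cells, at 0. Endothelial markers summed to 51.4 to 54.8 and 45.8 to 48.7 CPM, ranges that did not overlap and were lower at day 6. By edgeR's test none of the 3 tested endothelial markers passed after adjustment, 1 of them, Egfl7, had an unadjusted p under 0.05 (0.041) and passed without day 6 B (-0.73, edgeR adjusted p = 0.0347), and Cdh5 and Kdr were at 0. Podocyte and parietal markers summed to 394 to 443 and 384 to 400.1 CPM, with 3 of 10 risen, 3 fallen and 3 without a count. The part of any such cells in the results was not tested.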

How the data were processed

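PolyA RNA of PT-22 cells was sequenced in bulk, and the 6 libraries of day 2 and day 6 were compared out of 12. The tools named in the submitters' processing notes are STAR 2.7.8a, RSEM 1.3.3, cutadapt 2.3 and FastQC 0.11.8, with the build GRCm38. The annotation and strand use are not stated. The authors deposited expected counts per gene, rounded and not normalized, and in 41 to 60 genes per library of day 2 or day 6 the count was 0 while TPM was above 0, as rounding gives. TPM values were deposited by the authors in a second table. Every column was used (0 left out). Of 55491 rows, 4 had no Ensembl ID, and 55141 IDs were found in GENCODE M21, 53340 with the same symbol.

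Groups came from the labels. In R 4.3.3, edgeR 4.0.16 was run on the 6 libraries: filterByExpr by group, TMM scaling, robust dispersions and 1 term for the day (4 residual degrees of freedom, and a common BCV, the biological coefficient of variation, of 0.0634). Day 2 against control came from a model of all 12 libraries over 13513 genes. Control and day 12 levels were put on the scale of the 6 libraries. Folds against a day without counts were set against 3 counts over the group. Shares of counts were compared by exact two-sided permutation. Between replicates, chi-square per degree of freedom was 2.28 to 7.56, so none were copies. The fit was tested on simulated counts first.

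The 35 gene lists and 7 marker lists, of 1706 symbols with 6 unmatched, and the rule for naming genes were chosen with earlier results of these data known. Lists share genes. The rule took Pax8, Pax2 and Malat1. Among genes that passed, did not overlap, had a mean of at least 5 CPM and were not predicted, histone or mitochondrial, it took the 12 largest changes each way and the 6 largest with at least 200 CPM. It also took up to 6 each way that were added or reversed, and in each list the 6 members of smallest p and the 3 most abundant that did not pass. Each marker could be named. Some genes that the rule took are not reported here. Alternatives were the model of 12 libraries, DESeq2 1.42.0, upper-quartile scaling, other filters (none, or at least 10 CPM in 3 libraries), limma 3.58.1 on log2(TPM + 1) or log2(TPM + 0.1), a replicate block and leaving out each library.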

Additional observations from a re-analysis of the deposited data

How the results depend on the processing

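The count of genes that differed, 5693, was 4723 with DESeq2, 6062 in the model of 12 libraries, 5673 with upper-quartile scaling and, when single libraries were left out, 4655 to 5762. With at least 10 CPM required, fewer genes were tested, and 267 were higher and 165 lower by at least 2-fold. On log2(TPM + 1), 1131 genes were lower, 176 of them by at least 2-fold, and on log2(TPM + 0.1) 1124 were lower. With log2(TPM + 1) centred on each library's median gene, an alternative chosen after seeing the data, 3753 genes differed, 1721 were higher and 305 of them by at least 2-fold. The cause was not tested. Deviations of same-letter libraries correlated at 0.044, -0.027 and -0.071 over genes, and those of different letters at -0.051 to 0.072. Same letters did not stand out by this measure, which does not settle what the letters mark. With a replicate block 5598 genes differed and Cubn no longer passed (edgeR adjusted p = 0.0548). Of the 165 genes named in the text that passed, 162 kept their direction and call under every alternative that tested them, the exceptions being Cubn, Atp5b and Ppargc1a as given above. When single libraries were left out, the difference in the mitochondrial share ran from -1.38 to -0.59 percentage points, the latter without day 2 B, and that in the Malat1 share from 0.187 to 0.238. On log2(TPM + 1) without centring the falls were 7 among collagens and laminins, 7 among S phase genes, 5 among p53 targets, 6 among growth factor genes, 5 among guidance genes and 1 among lysosomal genes, and with centring the rises were 9 among p53 targets, 7 among circadian genes and 3 in the BCL2 family. The 3 libraries a day limit precision, and genes with few counts at 1 day have loosely fixed folds.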
